A study of Mus musculus with 32 samples.

Results

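The circadian clock genes described here were Per1, Per2, Cry1, Clock, Arntl, Dbp, Tef, Nr1d2, Bhlhe40 and Csnk1e. Every probe set of the array whose single gene symbol in the platform annotation was one of these names was taken, which gave 12 probe sets for 10 genes, of 8251 named genes in all. Their signal was measured in hippocampus of 8 untreated inbred mouse strains: C57BL/6J, DBA/2J, SJL/J, C3H/HeJ, FVB/NJ, BALB/cByJ, A/J and hippocampus_129S1SvImJ. The name of the last is written in the text as its sample titles spell it, after the tissue and without the slash, and the figures show it with the slash. Each strain was 1 pool of RNA from 6 mice, from which cRNA was prepared 2 times. Hybridising every preparation to 2 Affymetrix Murine Genome U74Av2 arrays gave 32 arrays. Arrays 1 and 2 of a strain carry preparation 1, and arrays 3 and 4 preparation 2, as the design text numbers them. The title of array 2 of FVB/NJ bears a different day from those of the other arrays numbered 2, so its place in preparation 1 is less certain. The comparison of preparations is also given without that array. Arrays 3 and 4 of BALB/cByJ and of FVB/NJ also bear other days than the arrays of those numbers in the other strains. These replicates are technical: a p-value here refers to how much preparations and hybridisations vary, and says nothing on variation among animals. The sources used here give neither the age and sex of the mice nor the hour at which they were killed. Because these transcripts cycle over the day in many tissues, strain and hour of killing cannot be told apart. In tissue RNA, fewer cells of a type and less RNA per cell cannot be told apart either.

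The mammalian clock is a loop of transcription and repression. The proteins CLOCK and ARNTL (also called BMAL1) bind DNA as a pair at E-box sequences and switch on the Per and Cry genes, whose products return to the nucleus and block that pair. A casein kinase encoded by Csnk1e phosphorylates PER proteins and marks them for breakdown. Bhlhe40 (DEC1) is a repressor that competes for E-boxes, NR1D2 (REV-ERB beta) represses Arntl, and DBP and TEF are output factors that bind D-box sequences. The loop is best known from the suprachiasmatic nucleus of the hypothalamus, which light sets through the retina, but clock transcripts also cycle in the hippocampus, where the clock has been tied to memory and excitability.

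Promoters are shown for 4 genes, because they contain the letters of the E-box or D-box named above. They are RefSeq sequences of the assembly GRCm38.p6, from 250 bases before to 50 bases after a start site, read 5′ to 3′ on the gene's strand. Capitals mark the E-box CACGTG in Per1, Cry1 and Tef and the D-box TTATGTAA in Per3, a Period gene outside the 10 that is described further on.
Per1 (chr11:69098699-69098998, plus strand): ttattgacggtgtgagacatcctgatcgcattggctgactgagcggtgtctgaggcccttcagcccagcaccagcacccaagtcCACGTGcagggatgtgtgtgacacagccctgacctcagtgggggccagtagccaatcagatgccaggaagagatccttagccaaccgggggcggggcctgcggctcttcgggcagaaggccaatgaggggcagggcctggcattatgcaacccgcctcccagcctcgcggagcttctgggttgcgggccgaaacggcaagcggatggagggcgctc
Cry1 (chr10:85185005-85185304, minus strand): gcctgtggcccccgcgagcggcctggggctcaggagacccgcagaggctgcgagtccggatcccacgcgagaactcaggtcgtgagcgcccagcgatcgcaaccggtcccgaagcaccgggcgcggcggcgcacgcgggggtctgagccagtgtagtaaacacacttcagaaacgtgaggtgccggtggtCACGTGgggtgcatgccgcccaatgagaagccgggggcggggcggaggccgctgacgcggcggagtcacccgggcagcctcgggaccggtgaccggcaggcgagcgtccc
Tef (chr15:81802423-81802722, plus strand): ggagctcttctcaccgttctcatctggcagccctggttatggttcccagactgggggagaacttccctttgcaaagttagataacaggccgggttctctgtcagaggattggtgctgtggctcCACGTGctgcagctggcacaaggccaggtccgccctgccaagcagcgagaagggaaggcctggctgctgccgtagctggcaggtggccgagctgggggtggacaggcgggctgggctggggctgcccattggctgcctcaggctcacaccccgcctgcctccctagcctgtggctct
Per3 (chr4:151044616-151044915, minus strand): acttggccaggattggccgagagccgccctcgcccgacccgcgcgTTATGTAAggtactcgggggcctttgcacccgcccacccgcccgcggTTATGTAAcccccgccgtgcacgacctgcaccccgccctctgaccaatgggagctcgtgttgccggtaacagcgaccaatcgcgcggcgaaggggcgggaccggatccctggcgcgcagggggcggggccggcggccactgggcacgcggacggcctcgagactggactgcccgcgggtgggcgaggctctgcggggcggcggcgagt
Counted from the start site, the E-box began at position -166 in Per1, -60 in Cry1 and -127 in Tef. Of the 10 genes, 8 had promoters in the RefSeq table, 16 in all, since a gene can have several start sites. CACGTG was in 4 of the 16, against 7.15% of the 32851 promoters of this length that were searched. Those 4 were of 3 of the 8 genes, against 8.09% of all genes with a searched promoter. A chromosome was left out of these backgrounds and of those that follow. The D-box was in 0 of the 16 and in 0.938% of all promoters, and Per3 held 2 copies. The sequence AGGTCA, the core of the element that REV-ERB and ROR receptors bind, was in 4 of the 16, those of Per1, Clock, Arntl and Nr1d2, and in 16.3% of all promoters. Each motif was searched on both strands. These are letter matches in the reference genome, and binding was not measured.

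The unit of the data is the deposited linear signal of a probe set, given below as deposited for single arrays and as log2 for means. Each mean ± SD was taken across a strain's 2 preparations (n = 2). Array medians ranged from 29.4 to 43.7. No detection calls were used, so a low signal does not show that a transcript is present, and signals of different probe sets are not compared. Hippocampal neuron markers were found for 9 of 9 genes listed, with Prox1 the dimmest at a mean signal of 38.5. Summed choroid plexus markers (3 of 6 genes listed) ranged 3.53-fold over strains, from 116 in C57BL/6J to 411 in C3H/HeJ. The summed signals of oligodendrocyte, astrocyte, microglia, endothelium, thalamus and neuron markers ranged 1.21-fold to 1.46-fold, and those of the hypothalamus (3 of 4 genes listed) 1.88-fold, from 121 to 226. Avp, which marks neurons of the hypothalamus, read 7.63. The part of other cells in the results below was not tested. The 6 sense-strand control probe sets, which are for actin and Gapdh, had a mean log2 signal of 6.95 to 7.84 on 11 arrays and of 4.91 to 5.64 on the other 21. Among the 11 were array 1 of FVB/NJ, arrays 1 and 2 of each of SJL/J, C3H/HeJ and A/J, and the 4 arrays of BALB/cByJ.

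Of the 12 probe sets, 9 were among the 7453 bright enough to be tested, 1 each for Per1, Cry1, Clock, Arntl, Dbp, Tef, Nr1d2, Bhlhe40 and Csnk1e. The other 3 fell under the limit, a mean signal of 21.3. Per2, a core repressor of the loop, read 6.10 to 29.8 on the 32 arrays with a median of 17.5. Of the 3 probe sets of Cry1, those not tested read 0.10 to 6.50 and 0.30 to 8.00, and on 15 and 7 arrays they lay under 1. For Per2 and these Cry1 probe sets no statement on strains can be made.

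The measured strain means of the tested clock genes lay within 2-fold of each other. The distance between the highest and the lowest strain mean was 1.20-fold for Arntl and between 1.30-fold and 1.78-fold for the other 8 tested genes. It was widest for Dbp, at 0.83 on the log2 scale, followed by Bhlhe40 at 0.81 and Tef at 0.63. None reached 2-fold, a range that 22.2% of all tested probe sets reached, and the median range was 0.56 against 0.68 over all. In limma's moderated F-test across the 8 strains 0 of the 9 passed an adjusted p of 0.05, against a background of 4.58% of all tested probe sets, and 0 of the 9 had an unadjusted p under 0.05. With 9 genes, a count of 0 passing is close to that background and is not read as particular to them. The smallest adjusted p was that of Tef, 0.35. With the preparation number as a block, which removes the mean difference between preparations 1 and 2, 0 of the 9 passed against a background of 18.9%, and Bhlhe40 came nearest with an adjusted p of 0.0528. With single arrays as units and the day in the sample titles as a fixed block, 4 passed against a background of 31.2%: Tef (adjusted p = 0.00775), Csnk1e (0.0139), Dbp (0.0208) and Bhlhe40 (0.0339). That fit counts the 2 arrays of a preparation as independent. Its days do not all hold the same strains, and array 4 of BALB/cByJ is alone on its day.

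**Figure D1:**
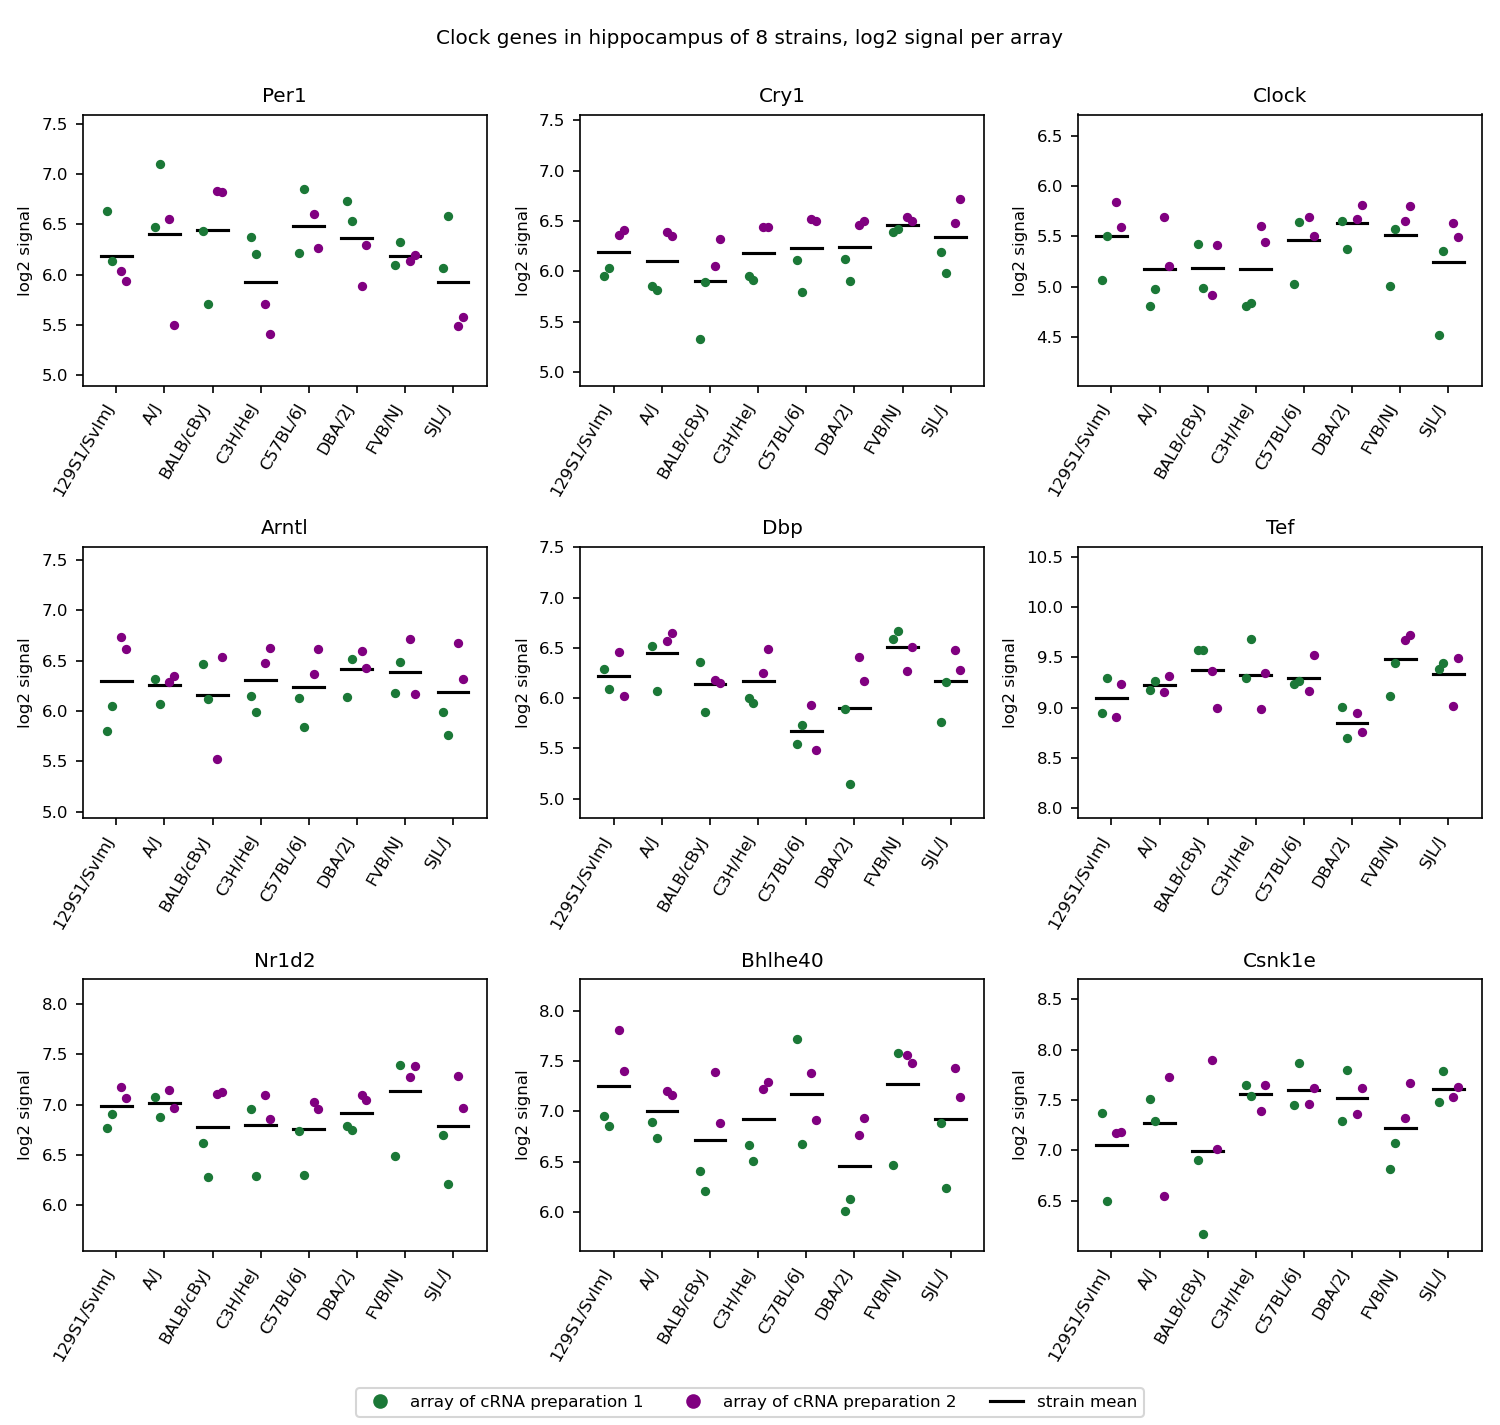
Log2 signal of 9 clock genes on the 32 arrays, by strain; points are arrays, coloured by cRNA preparation, and the black line is the strain mean. All panels span the same height in log2 units. The 4 arrays of a strain span more than the strain means do in all 8 strains for Arntl and in 7 for Per1 and Clock. For Dbp and Tef they do so in 1 strain, and the other genes lie between. For Cry1 the arrays of preparation 2 lie above those of preparation 1 in every strain.

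The activators Clock and Arntl were among the most even. Arntl read 46.1 to 106 on single arrays, and its strain means peaked in DBA/2J at 6.42 ± 0.13 and were lowest in BALB/cByJ at 6.16 ± 0.18. In all 8 strains the 4 arrays of a strain spanned more than the strain means did, so the order of the strains lay within the spread of their arrays. All 28 differences between pairs of strains had 95% intervals inside 2-fold. Clock, the partner of ARNTL, read 22.9 to 57.5. Its highest mean was 5.63 ± 0.16 in DBA/2J, and its lowest were 5.18 ± 0.03 in BALB/cByJ, 5.17 ± 0.39 in A/J and 5.17 ± 0.49 in C3H/HeJ. The adjusted F-test p was 0.92 for Clock and 0.99 for Arntl.

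Among the repressors of the loop, Per1, which light and cyclic AMP induce within the hour in many cells, read 42.6 to 138 on single arrays. Its strain means ran from 5.92 ± 0.51 in C3H/HeJ and 5.93 ± 0.56 in SJL/J to 6.45 ± 0.53 in BALB/cByJ and 6.49 ± 0.07 in C57BL/6J. The spread was within strains as much as between them: in A/J the 4 arrays read 88.8, 138, 93.9 and 45.2, a 3.05-fold span, against 1.48-fold between strain means. Cry1, a repressor that keeps the CLOCK and ARNTL pair silent on DNA, read 40.2 to 106 and was lowest in BALB/cByJ (5.90 ± 0.41) and highest in FVB/NJ (6.46 ± 0.08). The suffix of this Cry1 probe set marks possible reading of several transcripts, so its assignment is uncertain. FVB/NJ stood out by its evenness, with 84.2, 85.8, 93.1 and 90.5, whereas BALB/cByJ gave 40.2, 59.3, 66.5 and 80.2, and their arrays did not overlap. BALB/cByJ minus FVB/NJ, -0.56 ± 0.32 (SE), did not pass (adjusted p = 0.30) and passed with the block (adjusted p = 0.0359). Without the block it was -0.27 if preparation 1 of BALB/cByJ was left out and -0.86 if preparation 2 was. With single arrays and the day as a fixed block it was -0.50 (adjusted p = 0.0211). Nr1d2 read 74.0 to 168, from 6.76 ± 0.33 in C57BL/6J to 7.14 ± 0.28 in FVB/NJ, and the intervals of all 28 pairs lay inside 2-fold.

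Bhlhe40 was low in DBA/2J. There the 4 arrays read 64.4, 69.8, 109 and 122. The next lowest strain, BALB/cByJ, read 84.8, 73.8, 167.5 and 118, and C3H/HeJ read 101.5, 90.8, 149.7 and 157. The higher strains were hippocampus_129S1SvImJ with 124, 116, 225 and 169, FVB/NJ with 88.5, 191.5, 188.5 and 178, and C57BL/6J with 210.0, 102, 167 and 121. In DBA/2J arrays 1 and 2 were the lowest of all 32, and arrays 3 and 4 overlapped those of the other strains. SJL/J (118.5, 75.4, 173 and 141) and A/J (119, 107, 147 and 143) lay between. DBA/2J was -0.58 ± 0.28 (SE) from the mean of the other 7 strains on the log2 scale (95% interval -1.18 to 0.02, adjusted p = 0.53). The difference was -0.19 without preparation 1 of DBA/2J and -0.97 without its preparation 2, and passed in neither case. With the preparation block the adjusted p was 0.0371, against a background of 2.48% of probe sets called lower in DBA/2J by that fit. With the block hippocampus_129S1SvImJ was also above DBA/2J (by 0.80, adjusted p = 0.032), and DBA/2J minus FVB/NJ was -0.81 (adjusted p = 0.0343). Without preparation 1 of DBA/2J, and with no block, these were 0.41 and -0.42, and without array 2 of FVB/NJ the latter was -0.54. With single arrays and the day as a fixed block, DBA/2J was -0.54 from the other 7 (adjusted p = 0.0162).

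The output factors Dbp and Tef had ranges between strain means of 1.78-fold and 1.55-fold. Dbp, which drives daily rhythms of metabolic enzymes, was lowest in C57BL/6J with 46.8, 53.3, 60.9 and 44.7 on the 4 arrays. It was highest in FVB/NJ with 96.1, 101, 77.3 and 91.2 and in A/J with 91.8, 67.2, 94.9 and 100.1. The arrays of C57BL/6J lay below all those of A/J and FVB/NJ, while DBA/2J, with 59.5, 35.5, 85.0 and 71.8, overlapped all 3 of these strains. In hippocampus_129S1SvImJ (78.1, 68.2, 88.0 and 65.0) and C3H/HeJ (64.2, 61.7, 76.1 and 90.0) every array was above those of C57BL/6J. In BALB/cByJ (82.2, 58.1, 72.4 and 71.0) and SJL/J (54.3, 71.5, 89.3 and 77.5) the lowest array fell within its range. C57BL/6J was -0.55 ± 0.21 (SE) from the other 7, which did not pass (adjusted p = 0.24, and 0.0653 with the block). Its distance from FVB/NJ was the widest of any pair for any clock gene, -0.83 ± 0.27, with a 95% interval from -1.42 to -0.25 and an adjusted p of 0.25. With single arrays, counted as independent, and the day as a fixed block, C57BL/6J was -0.55 from the other 7 (adjusted p = 0.00749). Its distance from FVB/NJ was then -0.77 (adjusted p = 0.0111).

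Tef, a relative of Dbp, was lowest in DBA/2J with 514, 414.5, 495 and 432, where its 2 preparations were nearly equal (8.85 ± 0.0022). FVB/NJ was highest with 553, 695, 816 and 843, and BALB/cByJ next with 762, 763, 660.5 and 509. The arrays of DBA/2J lay below all those of FVB/NJ, of C57BL/6J (603, 614, 573 and 735), of A/J (579, 615, 572 and 636) and of SJL/J (669.5, 695, 517 and 719), and in BALB/cByJ only the lowest array overlapped them. In C3H/HeJ (628.5, 821.5, 507 and 651) 1 array and in hippocampus_129S1SvImJ (494, 627, 481 and 601) 2 arrays fell within the range of DBA/2J. DBA/2J was -0.45 ± 0.13 (SE) from the other 7, with an unadjusted p of 0.00373 and an adjusted p of 0.14. With the preparation block the adjusted p was 0.0458, and Tef in DBA/2J was then below BALB/cByJ (adjusted p = 0.0272) and FVB/NJ (adjusted p = 0.0484) as well. The first of these differences was 0.53, and 0.33 without preparation 1 of BALB/cByJ. With single arrays and the day as a fixed block, DBA/2J was -0.47 from the other 7 (adjusted p = 0.00149).

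Csnk1e, the kinase, fell into a more even and a more scattered set of strains. SJL/J (178, 221, 184 and 198), C57BL/6J (175, 234, 177 and 196), C3H/HeJ (201, 186, 168 and 201) and DBA/2J (157, 222, 164 and 196) had means from 7.52 to 7.61, with SDs of 0.04 to 0.09. BALB/cByJ (119.8, 71.9, 238 and 129.1) had the lowest mean, 6.99 ± 0.65, and held both the lowest and the highest of the 32 arrays. hippocampus_129S1SvImJ (165, 90.2, 144 and 146), FVB/NJ (112, 135, 160.1 and 204) and A/J (183, 157, 93.5 and 212) lay between. BALB/cByJ was -0.41 ± 0.20 (SE) from the other 7 (adjusted p = 0.18). Without preparation 2 of BALB/cByJ the difference was -0.87 (adjusted p = 0.0365), and without preparation 1 it was 0.05 (adjusted p = 0.93), so its direction rests on preparation 1. In both cases 1 preparation stands for the strain and is assumed to vary like the others. With single arrays and the day as a fixed block it was -0.69 (adjusted p = 0.0109).

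No strain passed the tests for the clock genes in the fit without a block. Of 72 differences of a strain from the mean of the other 7, 0 passed limma's test, against a background of 1.93%, and 2 had an unadjusted p under 0.05 (2.78%, against 10.1% of all). Those were the low Dbp of C57BL/6J and the low Tef of DBA/2J. The 95% intervals of 71 of the 72 lay inside 2-fold, and the other was that of Bhlhe40 in DBA/2J. Of 252 differences between pairs of strains 0 passed, against a background of 1.58%, and 15 had an unadjusted p under 0.05 (5.95%, against 9.96% of all). No neighbours in the order of strains passed the test for any of the 9 genes. The intervals of 180 of the 252 lay inside 2-fold, and those of the other pairs reached beyond it. With the preparation block 2 strain differences passed (background 6.13%), both in DBA/2J, and 5 pair differences (background 6.14%). With single arrays and the day as a fixed block, 5 strain differences (background 8.48%) and 15 pair differences (background 8.68%) passed. FVB/NJ had the highest mean for 5 of the 9 genes, Cry1, Dbp, Tef, Nr1d2 and Bhlhe40, and was highest for 11.4% of all tested probe sets. That is a description of strain means that were not separated by the tests. Array 2 of FVB/NJ bears a day that in most other strains belongs to preparation 2. Cry1, Nr1d2 and Bhlhe40 were higher in preparation 2, so strain and day cannot be told apart in these ranks.

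**Figure D2:**
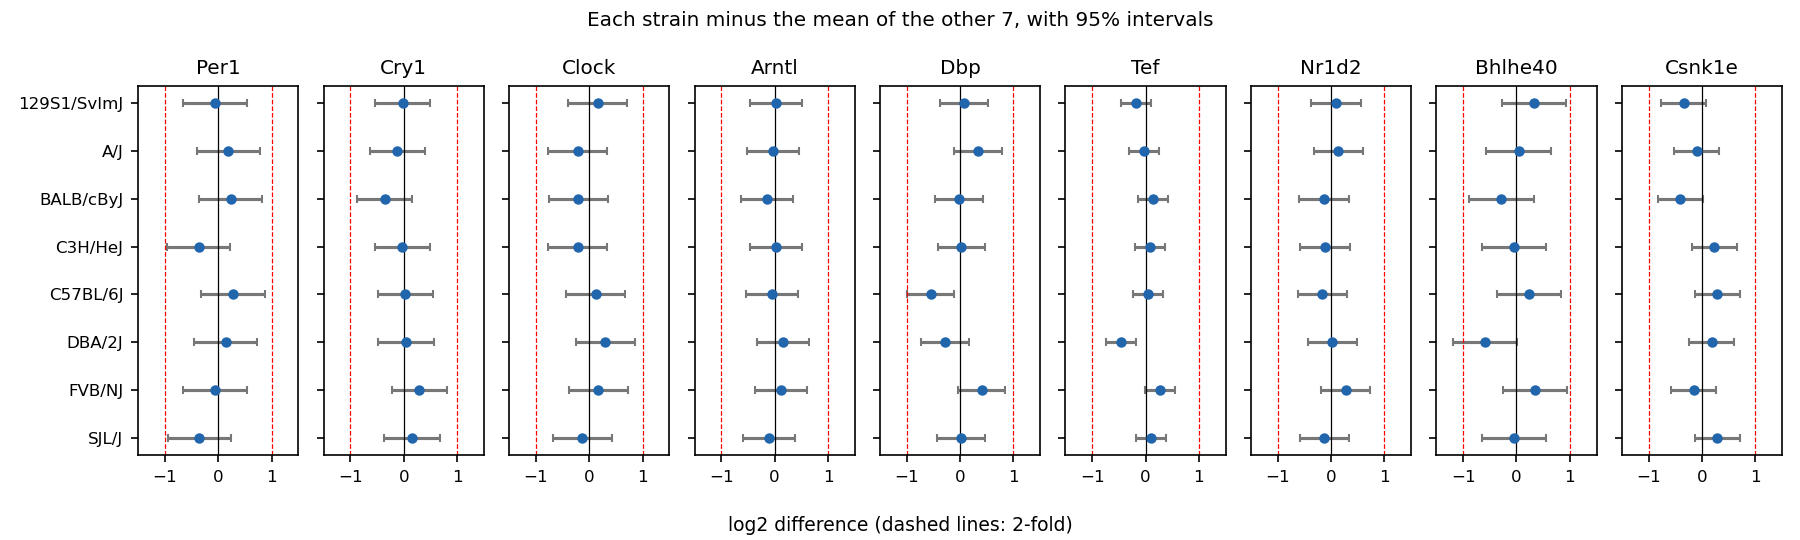
Log2 difference of each strain from the mean of the other 7 strains for 9 clock genes, with 95% intervals from limma; dashed lines mark 2-fold in either direction. Intervals cross 0 except for Dbp in C57BL/6J and Tef in DBA/2J, and only that of Bhlhe40 in DBA/2J passes a dashed line.

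C3H/HeJ, FVB/NJ and SJL/J are known to carry the rd1 allele of Pde6b, which destroys the photoreceptors of the retina. For 0 of the 9 genes did their 3 means lie all above or all below those of the other 5 strains, a pattern that 2.42% of all tested probe sets showed.

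The share of variance between cRNA preparations was larger than that between strains for 6 of the 9 clock genes. It was smaller for Tef, Dbp and Csnk1e. Over all tested probe sets it was larger for 4140 of 7453, so this order is not particular to the clock genes. In a nested split, strain took a median of 0% of the variance of the 9 clock genes, preparation 47.6% and array 49.97%. Over all tested probe sets the medians were 6.73%, 20.9% and 58.3%. Strain took a share of 0 for 6 of the 9 (66.7%), as it did for 40.1% of all. Part of this is a shift common to the strains: with the mean difference between preparations 1 and 2 taken out first, a step added after the data were seen, the medians were 19.6% for strain, 7.25% for preparation and 66.8% for array, against 19.0%, 1.18% and 67.4% over all. Strain then took 50.1% for Cry1, 39.3% for Dbp and 33.2% for Bhlhe40, and 0 for Per1 and Arntl. The share of preparation was then larger than that of strain for 2 of the 9, and for 2053 of all 7453. In a comparison chosen after the data were seen, preparation 2 was above preparation 1 for 5 of the 9, against a background of 25.6% called higher and 37.5% called in either direction. Bhlhe40 was higher by 0.57 ± 0.10 (SE, higher in 7 of 8 strains, adjusted p = 8.6e-04), Cry1 by 0.46 ± 0.09 (8 of 8, adjusted p = 0.0017) and Nr1d2 by 0.40 ± 0.08 (8 of 8, adjusted p = 0.0024). Clock (0.40 ± 0.12, 7 of 8 strains, adjusted p = 0.018) and Arntl (0.32 ± 0.11, 7 of 8, adjusted p = 0.039) also passed. The exception in Clock and Arntl was BALB/cByJ, and in Bhlhe40 it was C57BL/6J. Both arrays of preparation 2 of BALB/cByJ bear other days than those of most strains, and the part of the day was not tested. Per1 went the other way (-0.33 ± 0.15, higher in 1 of 8 strains, adjusted p = 0.10), and Dbp (0.23 ± 0.11), Csnk1e (0.14 ± 0.12) and Tef (-0.05 ± 0.08) did not pass. Without array 2 of FVB/NJ the same 5 passed, with adjusted p from 7.6e-04 for Bhlhe40 to 0.0316 for Arntl, and Per1 was higher in 2 of 8 strains. The 2 preparations of a strain came from the same cDNA, so these values describe cRNA synthesis and hybridisation and not animals.

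Arrays with high sense-strand control signal were mostly of preparation 1, and their values are given for that reason. On those 11 arrays Clock had a median of 31.4 (22.9 to 42.9), against 48.6 (32.5 to 57.5) on the other 21. For Cry1 the medians were 62.1 and 85.8, and for Bhlhe40 101.5 and 147, with overlap for all 9 genes. In hippocampus_129S1SvImJ, C57BL/6J and DBA/2J, where no array had high sense-strand signal, preparation 2 was above preparation 1 by 0.39, 0.55 and 0.46 for Cry1 and by 0.29, 0.47 and 0.30 for Nr1d2. For Bhlhe40 the same 3 strains gave 0.70, -0.04 and 0.78. With the sense-strand signal as a covariate in the F-test across strains, an alternative added after the data were seen, 0 of the 9 passed against a background of 3.69%.

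**Figure D3:**
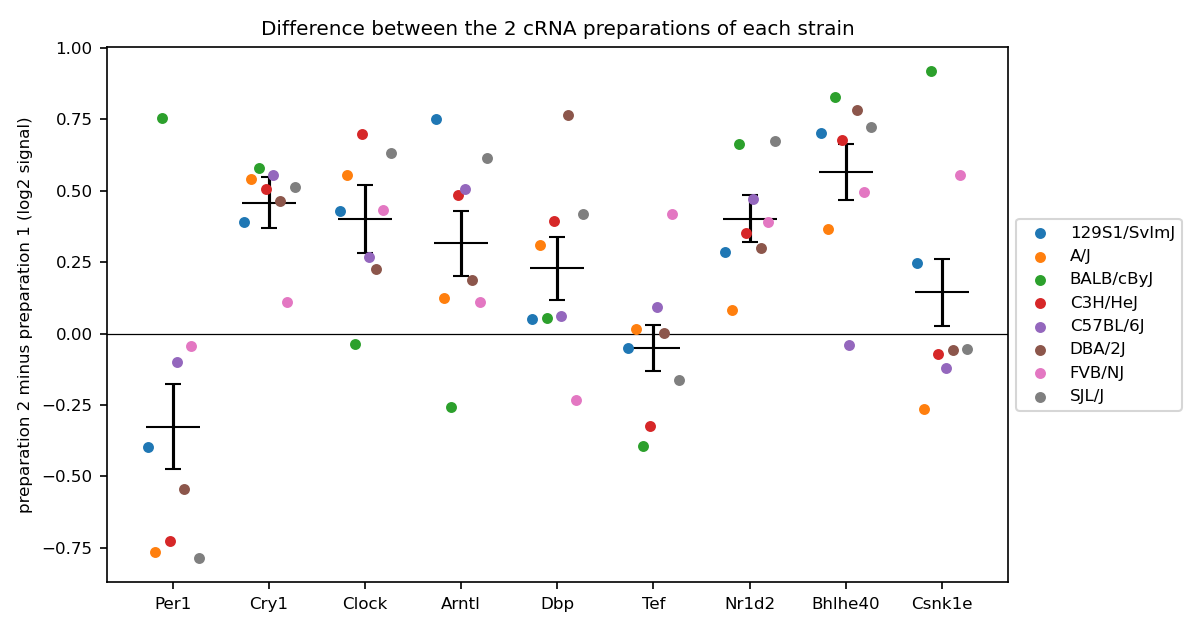
Preparation 2 minus preparation 1 in log2 signal for 9 clock genes; coloured points are the 8 strains, and the black bar and whiskers are the mean and its SE. All 8 strains lie above 0 for Cry1 and Nr1d2, 7 of 8 for Clock, Arntl, Dbp and Bhlhe40, and 1 of 8 for Per1.

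Co-variation of the clock genes across strains was weak. Over the 36 pairs of genes and the 8 strain means, Pearson's r ran from -0.51 to 0.71 with a median of 0.08, and 21 pairs were positive. In exact two-sided permutation tests 0 pairs passed after Benjamini-Hochberg adjustment and 0 had an unadjusted p under 0.05. The highest was Dbp with Nr1d2 (r = 0.71, exact p = 0.0509, adjusted 0.78; Spearman's rho = 0.86, exact p = 0.0107, adjusted 0.39). Without the 2 strains farthest from the median of Dbp, which narrows the range of Dbp, r was 0.38, and it was 0.52 within preparation 1 and 0.31 within preparation 2. Clock and Arntl, whose proteins form the activating pair, had r = 0.70 (exact p = 0.0643, adjusted 0.78; rho = 0.55, exact p = 0.171, adjusted 0.96). Their r was 0.57 without the 2 farthest strains, 0.36 within preparation 1 and 0.86 within preparation 2. The 2 PAR bZip factors Dbp and Tef had r = 0.39. Of the 36 pairs, 18 had the same sign in both preparations. The strain means of a preparation share arrays between genes, so array effects enter both sides of every pair.

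**Figure D4:**
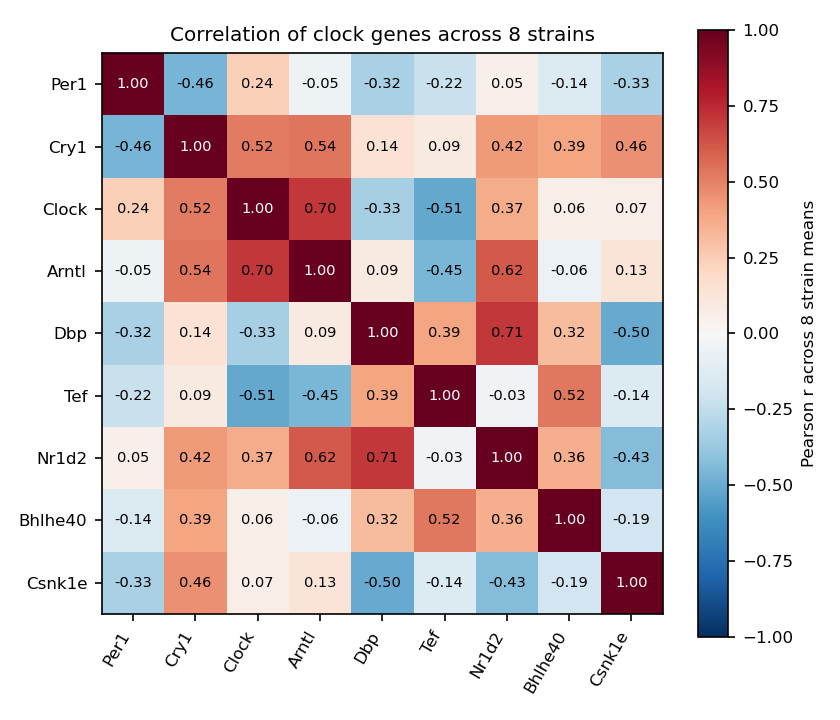
Pearson's r between 9 clock genes over 8 strain means; red is positive, blue negative, and the number in each cell is r. The highest values off the diagonal are 0.71 for Dbp with Nr1d2 and 0.70 for Clock with Arntl, and the lowest is -0.51 for Clock with Tef.

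Tef, the clock gene with the smallest F-test p, was set against all other named genes with a unique probe set. Plxnd1, a semaphorin receptor (r = 0.90 over 8 strains), Ccar1, a regulator of the cell cycle and apoptosis (r = 0.90), and Kif1a, a kinesin that carries synaptic vesicle precursors (r = 0.89), followed its pattern most closely. All 3 were lowest in DBA/2J, but of them only Kif1a passed the F-test across strains (adjusted p = 0.00669). The adjusted p was 0.90 for Plxnd1 and 0.72 for Ccar1. The 3 genes were picked for this likeness, so r is a description.

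Among further clock factors, Per3 differed between strains. Of 14 such genes listed, 7 were tested and 1 passed the F-test, against a background of 4.12% of named genes, and 1 passed with the block (background 18.9%). Per3, a Period gene tied to sleep timing, read 48.6, 60.9, 45.1 and 55.4 in C57BL/6J, 61.3, 84.0, 43.5 and 46.2 in hippocampus_129S1SvImJ and 66.3, 64.2, 48.5 and 61.9 in A/J. In SJL/J it read 62.6, 112, 71.9 and 56.8, and in C3H/HeJ 85.1, 96.7, 71.3 and 66.6. The highest strains were DBA/2J with 110.4, 113, 107 and 97.7, BALB/cByJ with 102, 160.2, 99.2 and 95.2, and FVB/NJ with 133, 108, 121 and 108. Every array of these 3 strains was above every array of C57BL/6J, hippocampus_129S1SvImJ and A/J. The means spanned 2.25-fold, from 5.70 ± 0.09 in C57BL/6J to 6.87 ± 0.05 in FVB/NJ (adjusted p = 0.0449, and 9.4e-04 with the block). C57BL/6J was below BALB/cByJ by 1.10 ± 0.27 (SE, adjusted p = 0.0244) and below FVB/NJ by 1.17 ± 0.27 (adjusted p = 0.0407) on the log2 scale. No strain passed against the other 7, and with the block BALB/cByJ (0.58, adjusted p = 0.00751) and FVB/NJ (0.66, adjusted p = 0.0264) were higher and C57BL/6J (-0.67, adjusted p = 0.00909) lower. Of the 28 alternatives, the first of these pair calls was lost in 6 and the second in 12. The F-test call of Per3 is close to its threshold: it was lost in 18 of 28 alternatives, with adjusted p up to 0.16. Among these alternatives were the omission of either preparation of A/J, BALB/cByJ, C57BL/6J, DBA/2J, FVB/NJ or SJL/J and of array 2 of FVB/NJ.

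Nr1d1 (REV-ERB alpha, the close relative of Nr1d2) spanned 5.01-fold without passing the F-test (adjusted p = 0.26). BALB/cByJ was 1.45 ± 0.45 (SE) above the other 7, which passed with the block only (adjusted p = 0.0582, and 0.0156 with the block). It read 175 to 438 on the 11 arrays with high sense-strand control signal and 35.4 to 122 on the other 21. The 2 sets of arrays did not overlap, which held for 0.188% of all tested probe sets. Its difference between preparations varied between strains, from -2.37 in A/J to 0.99 in C57BL/6J (limma interaction test, adjusted p = 0.00132, background 0.107%). The gene overlaps Thra, which is transcribed from the opposite strand, and the strand that the probe set reads was not checked here. With the sense-strand covariate its range fell to 0.79 (adjusted p = 0.75), and the difference of BALB/cByJ from the other 7 was -0.10 (adjusted p = 0.92). Every array of BALB/cByJ had high sense-strand signal, so strain and that signal cannot be told apart there.

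**Figure D5:**
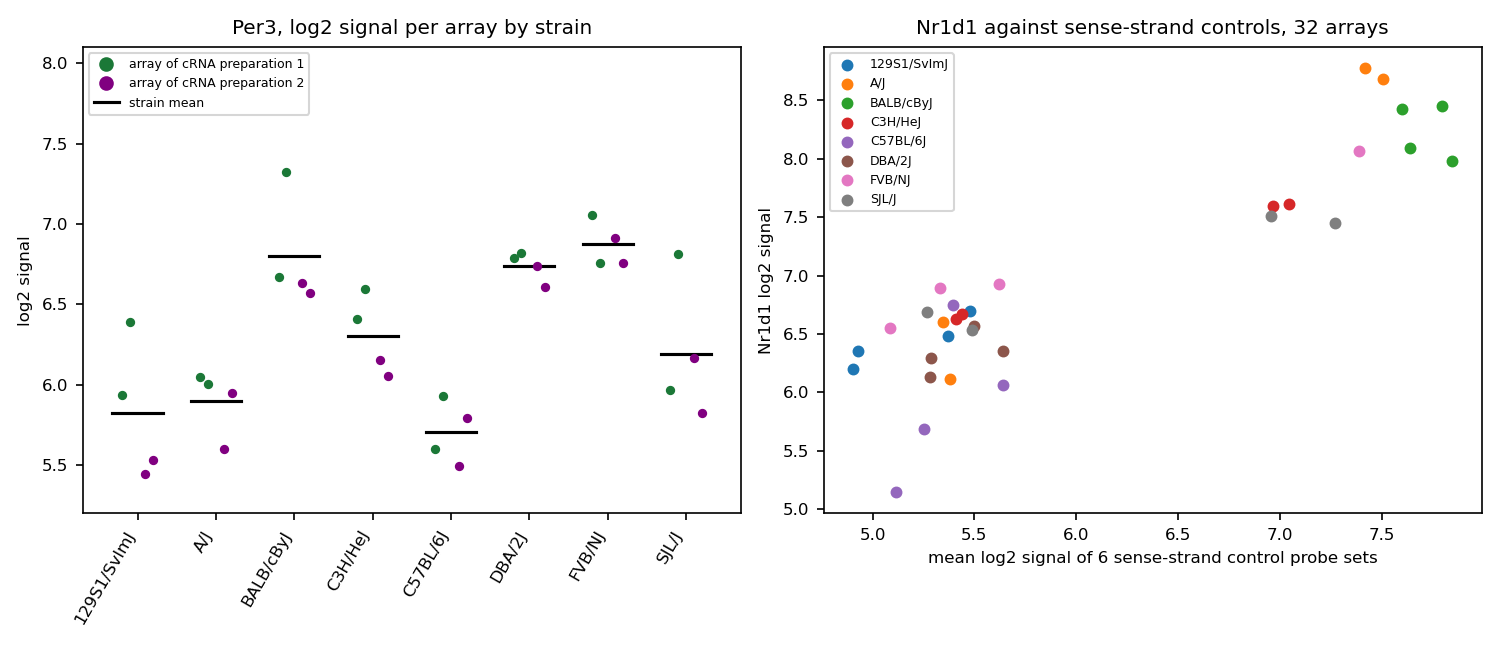
Left, log2 signal of Per3 on each array by strain, with the strain mean as a line; right, log2 signal of Nr1d1 against the mean log2 signal of 6 sense-strand control probe sets on 32 arrays. Per3 arrays of DBA/2J, BALB/cByJ and FVB/NJ lie above those of C57BL/6J, hippocampus_129S1SvImJ and A/J, and the Nr1d1 points form 2 separate groups of 21 and 11 arrays.

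The orphan receptor Rora, which activates Arntl, ranged 1.63-fold (adjusted p = 0.83), and Nfil3, the repressor at D-boxes, 2.41-fold (adjusted p = 0.67). Both probe sets have suffixes that mark possible reading of several transcripts. Of the kinases, phosphatases, ubiquitin ligases and cofactors of the clock, 21 of 34 listed were tested. In the F-test 1 passed, Skp1, against a background of 4.12% of named genes, and 3 passed with the block, against 18.9%. Skp1, a subunit of the ligases that tag PER and CRY proteins, read 221, 210.5, 269.6 and 267 in SJL/J and 509, 482, 697 and 676 in hippocampus_129S1SvImJ, the highest strain. SJL/J was -0.93 ± 0.19 (SE) from the other 7 (adjusted p = 0.0409), a call lost in 12 of 28 alternatives, among them without either preparation of SJL/J. The F-test call of Skp1 was lost in 2 of 28 alternatives. With the block Skp1 was also higher in hippocampus_129S1SvImJ (adjusted p = 0.0179) and C57BL/6J (0.0122) and lower in BALB/cByJ (0.00467) and DBA/2J (0.00635). Csnk2a1, a catalytic subunit of casein kinase 2 (1.81-fold, adjusted p = 0.33), Gsk3a, a glycogen synthase kinase (1.49-fold, adjusted p = 0.33), and Ppp1cb, a catalytic subunit of protein phosphatase 1 (1.78-fold, adjusted p = 0.11, and 0.0234 with the block), did not pass the F-test. Against the other 7 strains Csnk2a1 was lower in BALB/cByJ (-0.67 ± 0.18, SE, adjusted p = 0.0359) and Ppp1cb higher in DBA/2J (0.56 ± 0.13, adjusted p = 0.0409). The first of these calls was lost in 8 of 28 alternatives and the second in 16, among them without preparation 1 of BALB/cByJ for Csnk2a1 and without either preparation of DBA/2J for Ppp1cb. Csnk2a1 in BALB/cByJ read 116.5, 23.6, 82.3 and 86.3, so arrays 1 and 2, of the same preparation, lay far apart. The gene has 4 probe sets, of which 1 is given here. With the block Gsk3a (adjusted p = 0.0189) and Ppp1cb (0.0216) were lower in BALB/cByJ as well.

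Genes that feed signals into Per transcription were tested for 10 of 16 listed, and 0 passed the F-test, or 1 with the block (background 4.12%, and 18.9% with the block). That was Sgk1, a kinase induced by glucocorticoids, with an adjusted p of 0.51 and of 0.0143 with the block. Adcyap1r1, the receptor for the retinal peptide PACAP (1.95-fold, adjusted p = 0.25), Fkbp5, a glucocorticoid-induced chaperone partner (1.41-fold, adjusted p = 0.30), and the metallothionein Mt1 (1.31-fold, adjusted p = 0.70) did not pass. Against the other 7 strains, and with the block only, Sgk1 was lower in BALB/cByJ (adjusted p = 0.00251) and higher in DBA/2J (0.026), and Adcyap1r1 was higher in BALB/cByJ (0.0231) and lower in C57BL/6J (0.0491). The last was -0.57, and -0.29 without preparation 1 of C57BL/6J. Of 9 tested temperature-responsive transcripts 1 passed the F-test, and 6 passed with the block (background 4.12%, and 18.9% with the block). Hsp90aa1, an inducible cytosolic chaperone, was lowest in BALB/cByJ at 10.57 ± 0.31 (-0.86 ± 0.13, SE, adjusted p = 0.00209), whose 4 arrays read 3033.5, 1037.9, 775.5 and 2212.7. Over 28 alternatives the difference of BALB/cByJ from the other 7 ran from -1.07 to -0.64 for Hsp90aa1. The F-test call of Hsp90aa1 was lost in 6 of 28 alternatives. Among these were the omission of BALB/cByJ preparation 2 or of either preparation of FVB/NJ, and the sense-strand covariate. The heat shock gene Hspa1b (2.94-fold, adjusted p = 0.16), the endoplasmic reticulum chaperone Hspa5 (1.72-fold, adjusted p = 0.10) and the cold-inducible RNA-binding protein Cirbp (1.49-fold, adjusted p = 0.16) passed the F-test with the block only. Against the other 7 strains Hspa5 was lower in BALB/cByJ without the block too (-0.56 ± 0.13, SE, adjusted p = 0.0178), which was lost without either preparation of BALB/cByJ (adjusted p = 0.11). With the block only, Cirbp (adjusted p = 0.0176) and Hspa1b (0.0458) were lower in BALB/cByJ and Hspa1b higher in FVB/NJ (0.0166). Over the 16 named genes of these further lists, 5 of 128 strain differences passed, and 22 with the block, against backgrounds of 1.93% and 6.13%. The genes were named for their small F-test p, so nothing is read from that count. BALB/cByJ had the highest mean for 28.1% of all tested probe sets and the lowest for 27.5%, more than any other strain. Its calls in the further lists are therefore not read as particular to these genes.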

How the data were processed

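Hippocampal RNA of 8 strains was measured on 32 arrays. Each deposited value is a linear intensity of a probe set on an array. The submitters' processing notes name MAS5, with no version. The mean of each array, with the extremes trimmed, lay between 100.05 and 100.07, so no further scaling was applied. Scanner files were not used here. Of 12488 probe sets, 66 controls were left out. Genes were named from the platform annotation: 10833 probe sets had 1 symbol, 396 several and 1193 none.

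Values on the log2 scale were computed from the deposited intensities after raising those under 1 to 1 (2.14% of values). Tests covered the brightest 60% of probe sets (7453, with 1 symbol for 6743 and standing for 5660 genes). The 2 arrays of a preparation were averaged, and the 16 values were fitted with 8 strain means in limma 3.58.1 under R 4.3.3 (lmFit, eBayes with a variance trend, 8 residual degrees of freedom). P-values were adjusted by Benjamini-Hochberg over all tested probe sets, with a threshold of 0.05. For a listed gene the tested probe set of highest signal stood for it. Array numbers mark the preparation per the series design; array 2 of FVB/NJ carries another day in its title. Between any pair of strains (28 pairs), the differences between preparations were correlated over probe sets (r from 0.109 to 0.557, median 0.385), so calls that this block changed among the named results are given. The scripts were tested on simulated data.

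The clock genes and the lists were chosen with earlier results of these data known. The genes named are all probe sets of the 10 clock genes, the up to 4 tested genes of each further list with the smallest F-test p, and the 3 genes most like Tef. Alternatives changed the filter, the normalization, the block, the variance trend and the offset added before taking log2 (16 or 64), used single arrays as units, or left out each preparation. The number of arrays limits the precision.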

Additional observations from a re-analysis of the deposited data

Results flagged for a closer look

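Among 136 groups of 4 arrays and 17 sets of 8 strain means, 4 groups held an array whose gap to its neighbour passed Dixon's 95% value, which chance gives in about 1 of 20 groups. In FVB/NJ, array 1 read 90.2 for Nr1d2, against 155 to 168 on the other arrays of that strain, and 88.5 for Bhlhe40, against 178 to 191.5. It was the only array of FVB/NJ with a day borne by preparation 1 of the other strains. That day and its sense-strand signal, given next, cannot be told apart here. Array 1 was the array of FVB/NJ with high sense-strand control signal, and without preparation 1 of FVB/NJ the F-test across strains still called neither gene. In BALB/cByJ, array 2 read 160.2 for Per3, against 95.2 to 102. In SJL/J, array 2 read 10 for Nfil3, against 27.7 to 33.1.

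The difference between preparations varied between strains for Nr1d1, by limma's interaction test (adjusted p = 0.00132), from -2.37 in A/J to 0.99 in C57BL/6J. The low end of that range came from a strain whose preparation 1 alone had high sense-strand signal.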

How the results depend on the processing

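Over 28 alternatives, the count of clock genes past the F-test across strains was 0 except with single arrays and the day as a fixed block, where it was 4. Strain-against-rest calls among them (0) became 2 with the replicate block that holds the preparation number, 5 with the day as a block, and 0 to 1 with a preparation or array left out, the 1 without BALB/cByJ preparation 2. Pair calls (0) became 5 with the replicate block, 15 with the day as a block and 0 to 2 with a library left out, again without BALB/cByJ preparation 2. Correlated pairs stayed at 0 in all 27 alternatives listed for them. The replicate block, the changed filters and the mean over a gene's tested probe sets left the strain means as they were. Those alternatives could not change the count and are no check on it.

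Of the other clock factors and of the kinases, ligases and cofactors, 2 genes passed, Per3 and Skp1. The count was 4 with the replicate block, 4 with preparation as a random block and 7 with the day as a block. It was 1 with arrays centred on their median, with quantile normalization, with no filter and with the sense-strand covariate, and 0 with no variance trend. It was 0 to 2 with a library left out, falling to 0 without SJL/J preparation 1 and to 1 without A/J preparation 1, array 2 of FVB/NJ, SJL/J preparation 2 or either preparation of BALB/cByJ, C57BL/6J, DBA/2J or FVB/NJ. The causes were not tested. With the brightest 40% of probe sets, Clock, Rora and Nfil3 were not tested. No detection calls were used, so signal near the background limits what Per2 and the dim Cry1 probe sets can show. Of 24 signed strain differences named in the text, followed over 28 alternatives each, 2 turned sign, both without passing in either setting: Csnk1e in BALB/cByJ without its preparation 1 (0.05) and Nr1d1 in BALB/cByJ with the sense-strand covariate (-0.10). The directions of other values were not followed.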
